A study of Mus musculus with 24 samples.

Results

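The genes described here link nutrient sensing to growth arrest. They are the sestrin genes Sesn1, Sesn2 and Sesn3, the FOXO transcription factor genes Foxo1, Foxo3 and Foxo4, and the FOXO target genes Irs2, Pik3ip1, Ccng2 and Bcl6. The 10 genes were listed by symbol, and each was measured by 1 probe set, so that 10 of 19938 genes with a value are described. The members were selected on their log2 values over all arrays and times, in particular on the pattern that Sesn1 was higher after spermidine while other p53 targets were lower. The members' own changes over time are therefore given as a description and without p-values. The cells were NIH3T3, an immortalised line of mouse embryonic fibroblasts. All 24 dishes had been kept for 96 h in 1 mM DFMO, difluoromethylornithine, which blocks ornithine decarboxylase and so depletes polyamines. Cells were then given 10 µM spermidine and taken at 30 and 60 min, at 120 and 240 min, and at 360, 480 and 600 min, with the spermidine added in the presence of 1 mM aminoguanidine to stop its oxidation. The 0 min group received no spermidine, and the labels do not say whether it received aminoguanidine. Each time had 3 biological replicates on Affymetrix MoGene 1.0 ST arrays. No array used here came from cells left in DFMO without spermidine for the same hours, so time in culture and spermidine cannot be told apart.

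FOXO proteins switch on genes for cell cycle arrest, antioxidant defence and insulin sensitivity when growth factor signalling is low. Insulin and growth factors act through IRS adaptors, PI3K and Akt, and Akt phosphorylates FOXO proteins and sends them out of the nucleus, so that the activity of a FOXO factor is set largely after its mRNA is made. Sestrins are stress-induced proteins that restrain the growth kinase complex mTORC1. Sestrin 2 is a leucine sensor. When not bound to leucine, it holds back GATOR2, a complex needed for mTORC1 to respond to amino acids. In mammals Sesn1 and Sesn2 are known as p53 targets, Sesn1 and Sesn3 as FOXO targets, and Sesn2 also as a target of ATF4, the transcription factor of amino acid shortage.

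Values are the deposited RMA values on the log2 scale, on which a difference of 1 is a 2-fold difference. The medians of the 24 arrays lay between 4.40 and 4.45. An array value is relative to the RNA loaded, so less RNA of 1 gene per cell and fewer cells that express it cannot be told apart. Of 12 fibroblast markers 10 lay above every array median on all arrays, with Vim, the intermediate filament gene vimentin, highest at a mean of 12.72 and Fap lowest at 3.75. Of 5 adipocyte markers none did, and of the 6 markers each of macrophages, epithelium and muscle 1 did, Lyz2, Krt14 and Acta1 being the highest of their lists. At 600 min 3 of the 12 fibroblast markers were called higher, Pdgfra by 1.37, Pdgfrb by 0.42 and Vim by 0.10. Of the 6 epithelial markers Krt14 was higher by 0.36 and Cdh1 differed by -0.29, and of the 6 muscle markers Acta1 differed by -0.33 and Des by -0.27, all called, those of Krt14 and Acta1 not with a replicate block, in which replicate number is a term of the fit. None of the 6 macrophage and 5 adipocyte markers was called, and the part of these markers in the results was not tested. Replicate 3 labelled 120 min and replicate 3 labelled 240 min stood apart from the others of their times: on the first principal component they lay at 2.61 and -13.23, against -12.18 and -12.23 for the other 120 min arrays and 2.07 and 1.49 for the other 240 min arrays. Each thus lay near the level of the other time, and whether their labels were exchanged was not tested. These divergent arrays were kept under their labels, and results at 120 and 240 min are given with and without them.

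By 600 min the 10 genes had divided. Sesn1, Sesn3, Foxo4 and Ccng2 were higher than at 0 min, Sesn2 and Pik3ip1 were lower, and Foxo1, Foxo3, Irs2 and Bcl6 were not called different. A gene was called where limma gave an adjusted p under 0.05 over all 19938 genes, and under that rule 4 members were higher and 2 lower at 360, 480 and 600 min. Among all genes 8.47% were called higher and 10.5% lower at 360 min. The corresponding shares were 9.73% higher and 14.5% lower at 480 min, and 11.2% higher with 15.7% lower at 600 min. At 30, 60 and 120 min 0 members were called, where 0.0150%, 0.0251% and 0.471% of all genes were. At 240 min 1 member, Sesn2, was called lower, where 537 genes were called lower and 73 higher (3.06% of all genes in either direction). With both divergent arrays left out 2 members were called higher and 2 lower, where 492 genes were called higher and 1171 lower. With a replicate block 0 members were called, where 30 genes were called higher and 326 lower. All 3 arrays lay above those of 0 min for 4 members at 600 min, as for 17.5% of all genes, and below for 2, as for 19.9%. Since the list was made from these contrasts, nothing is read from the counts.

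**Figure D1:**
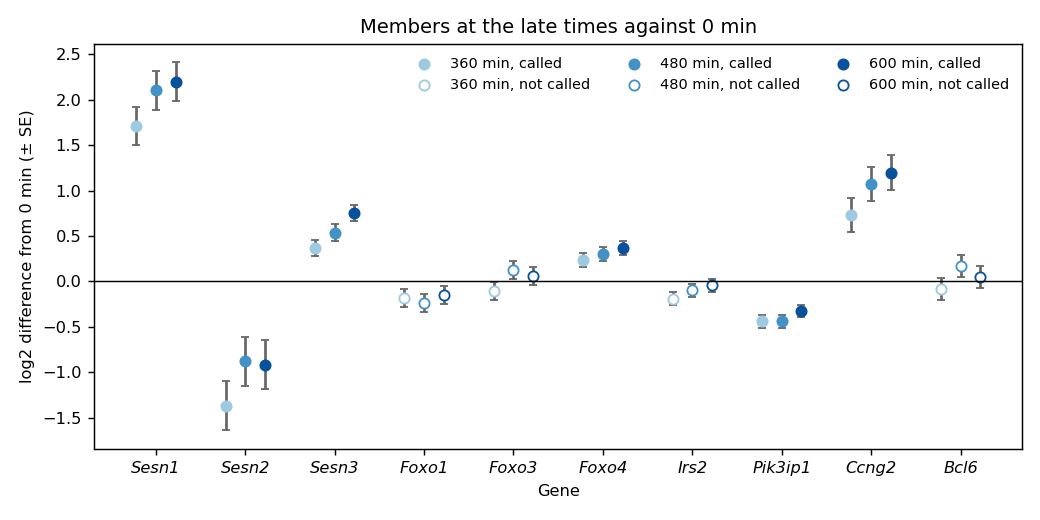
Difference from 0 min on the log2 scale (vertical axis, points with standard error) for each of the 10 genes (horizontal axis) at 360, 480 and 600 min, 3 arrays per time. Filled points were called by limma over all genes and open points were not. Sesn1 and Ccng2 stand above 0 and Sesn2 below it, while Foxo1, Foxo3, Irs2 and Bcl6 lie near 0.

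Sesn1 was the member that moved furthest. It read 7.00, 6.93 and 7.06 at 0 min, 6.89, 6.92 and 7.07 at 30 min, followed by 6.87, 6.87 and 7.15 at 60 min. These 9 arrays overlapped. At 120 min it read 7.19, 7.06 and 7.95, and at 240 min 8.20, 7.87 and 7.09. The last array of each of these triplets is the divergent one: the value at 120 min lay between both other 240 min arrays, and the value at 240 min lay between both other 120 min arrays. It then read 8.62, 8.86 and 8.65 at 360 min, 9.02, 9.25 and 9.03 at 480 min, followed by 9.25, 9.30 and 9.04 at 600 min. Every array from 360 min on lay above every array up to 240 min, and the arrays of 480 and 600 min overlapped.

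The mean of Sesn1 was 9.20 ± 0.13 at 600 min and 7.00 ± 0.07 at 0 min (SD, n = 3 each). The difference was 2.20 ± 0.21 (SE), a 4.59-fold rise, and only 20 of the 19938 genes had a larger positive difference. At 360 and 480 min the differences were 1.71 and 2.10. The step from 240 to 360 min, 0.99 ± 0.21, was the only step between neighbouring times in which Sesn1 was called with all arrays. With both divergent arrays left out, Sesn1 was called higher at 240 min too, by 1.03 ± 0.11, where the difference with all arrays was 0.72 ± 0.21 and not called. It was called with the filter on low values too, which tests fewer genes. With both divergent arrays left out, the step from 120 to 240 min was 0.90 ± 0.12 and called. The step from 240 to 360 min was 0.68 in that same fit.

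Sesn2 ran the other way, and not as a mirror image. It read 8.28, 7.64 and 7.34 at 0 min, a wider spread than at 30 or 60 min, then 8.14, 8.32 and 8.22 at 30 min and 7.78, 8.25 and 8.00 at 60 min. The 30 min mean lay 0.47 ± 0.27 above the 0 min mean, which was not called, and the groups overlapped through replicate 1 of 0 min. At 120 min Sesn2 read 7.23, 7.38 and 6.44, at 240 min 6.43, 6.23 and 7.38, and at 360 min 6.10, 6.32 and 6.75. With all arrays its lowest mean was at 360 min (6.39), and each divergent array again lay on the level of the other time. Without its divergent array, the 240 min mean was lower still, at 6.33. At 480 min the values were 6.99, 6.90 and 6.75, and at 600 min 6.85, 6.76 and 6.91. All arrays of 360, 480 and 600 min lay below all arrays of 0 min.

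The mean of Sesn2 was 6.39 ± 0.33 at 360 min and 7.76 ± 0.48 at 0 min (SD, n = 3 each), a difference of -1.37 ± 0.27 (SE), or 2.58-fold lower. Only 14 of 19938 genes had a more negative difference at 360 min. At 480 and 600 min the differences were -0.88 and -0.92, and the recovery of 0.49 ± 0.27 from 360 to 480 min was not called. Replicate 1 of 0 min weighed on these values: without it the difference was -0.65 for 600 min and -0.61 for 480 min, and neither was called. The call at 480 min also ended when its own replicate 2 (-0.89) or 3 (-0.81) was left out. At 240 min the difference was -1.08, and the call ended with a replicate block, with quantile normalization (-1.01), with eBayes with trend and robust, and in a fit to the 6 arrays compared. It also ended on leaving out the 0 min arrays numbered 1 (-0.81) or 2 (-1.13), or the 240 min arrays numbered 1 (-0.95) or 2 (-0.85). With both divergent arrays left out it was -1.43 ± 0.20 and called, as was the step from 120 to 240 min (-0.97 ± 0.22). Against the mean of 30, 60 and 120 min, which leaves the 0 min arrays out, the late mean over 360, 480 and 600 min differed by -1.05 ± 0.16.

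Sesn3 rose late and steadily. It read 6.83, 6.75 and 6.92 at 0 min, 7.17, 7.24 and 7.20 at 360 min, 7.49, 7.43 and 7.18 at 480 min, followed by 7.57, 7.70 and 7.49 at 600 min. At 30, 60 and 240 min all arrays lay between 6.64 and 7.06, and at 120 min the divergent array read 7.11 beside 6.72 and 6.74. The arrays of 360 min and later lay above all of these. The mean was 7.59 ± 0.11 at 600 min and 6.83 ± 0.09 at 0 min, a difference of 0.76 ± 0.09 (SE), or 1.69-fold. No single step between neighbouring times was called for Sesn3.

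**Figure D2:**
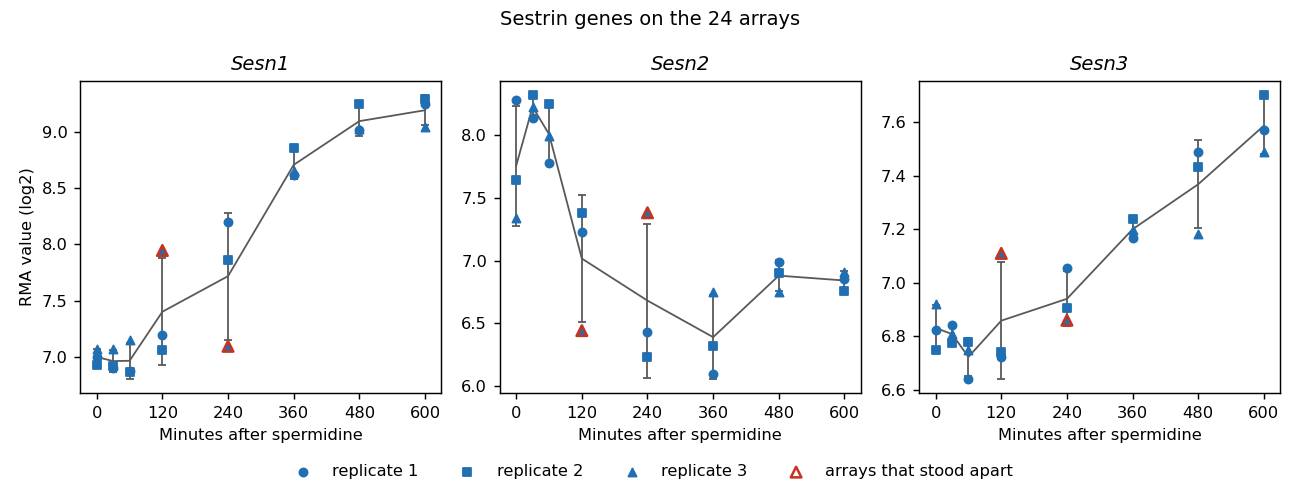
RMA values of Sesn1, Sesn2 and Sesn3 (vertical axes, log2 scale, a separate range for each gene) by minutes after spermidine (horizontal axes). Each symbol is 1 array, the line joins the means of 3 arrays, bars are SD, and red outlines mark both divergent arrays. Sesn1 is above its 0 min arrays at 240 min and climbs further, and Sesn3 is above its 0 min arrays from 360 min on. The mean of Sesn2 is lowest at 360 min with all arrays, and at 240 min (6.33) with both divergent arrays left out.

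The promoters of the sestrin genes are shown because the paralogs parted in these data and because Sesn1 and Sesn3 are known FOXO targets. Each window holds 250 bases before and 50 after a RefSeq start site on GRCm38.p6, and 9 of the 10 genes had an entry, with 11 start sites in all. Both strands were searched for GTAAACA (the FOXO core), CAAAACA (an insulin response core) and TGATGNAAT (the composite element of C/EBP and ATF factors), and matches are in capitals. Sesn1 has 2 listed starts, and the window of the upstream one (chr10:41810324-41810623, plus strand) holds a FOXO core, read as TGTTTAC, that begins 22 bases after the start. The windows of the downstream start of Sesn1 (chr10:41887189-41887488, plus strand), of Sesn2 (chr4:132510407-132510706, minus strand) and of Sesn3 (chr9:14276051-14276350, plus strand) hold none of these letters.

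Sesn1, upstream start: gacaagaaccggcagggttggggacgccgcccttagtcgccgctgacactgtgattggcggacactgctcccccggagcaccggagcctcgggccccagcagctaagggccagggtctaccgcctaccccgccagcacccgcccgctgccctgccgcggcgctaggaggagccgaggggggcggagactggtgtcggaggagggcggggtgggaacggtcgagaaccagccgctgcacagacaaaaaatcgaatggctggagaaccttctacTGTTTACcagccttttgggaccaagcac

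Sesn1, downstream start: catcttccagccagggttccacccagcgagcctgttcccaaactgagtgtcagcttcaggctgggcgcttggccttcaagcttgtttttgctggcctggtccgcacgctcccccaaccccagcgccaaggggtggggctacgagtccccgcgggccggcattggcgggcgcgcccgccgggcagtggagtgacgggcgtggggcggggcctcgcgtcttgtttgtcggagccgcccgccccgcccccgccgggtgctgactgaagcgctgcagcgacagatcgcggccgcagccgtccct

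Sesn2: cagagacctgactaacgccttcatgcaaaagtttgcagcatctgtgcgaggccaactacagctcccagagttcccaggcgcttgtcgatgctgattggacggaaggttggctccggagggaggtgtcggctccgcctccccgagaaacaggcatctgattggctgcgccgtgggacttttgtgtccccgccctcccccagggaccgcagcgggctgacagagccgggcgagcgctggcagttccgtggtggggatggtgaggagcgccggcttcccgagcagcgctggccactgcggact

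Sesn3: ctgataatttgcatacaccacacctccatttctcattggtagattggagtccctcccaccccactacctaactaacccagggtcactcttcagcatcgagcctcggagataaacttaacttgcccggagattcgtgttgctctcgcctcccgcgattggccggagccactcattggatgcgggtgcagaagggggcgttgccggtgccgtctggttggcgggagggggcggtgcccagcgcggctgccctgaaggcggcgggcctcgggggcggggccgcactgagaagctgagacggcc

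Among all 32851 windows of this length in the RefSeq table, 3.65% hold the FOXO core, 6.28% the insulin response core and 0.965% the composite element. Of the 11 windows of the members 1, 2 and 0 do. A match is a run of letters and not an established site, and a window with none says nothing of a factor.

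Of the FOXO factor genes, Foxo4 alone was called at the late times. Foxo4 read 6.44, 6.41 and 6.57 at 0 min, 6.63, 6.81 and 6.69 at 360 min, 6.83, 6.70 and 6.78 at 480 min, followed by 6.85, 6.90 and 6.78 at 600 min. The arrays of 360 min and later all lay above those of 0 min. The mean was 6.85 ± 0.06 at 600 min and 6.47 ± 0.09 at 0 min, a difference of 0.37 ± 0.08 (SE), or 1.29-fold. The difference at 360 min, 0.24 ± 0.08, lost its call with a replicate block and with eBayes with trend and robust. It also lost it on leaving out the 0 min arrays numbered 1 (0.22) or 2 (0.21), or the 360 min arrays numbered 2 (0.19) or 3 (0.25).

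Foxo1 and Foxo3 stayed within narrow ranges. Foxo1, which in liver drives glucose production, lay between 5.81 and 6.33 on all 24 arrays. Its lowest mean was 5.91 at 120 min and its highest 6.17 at 0 min. All arrays of 120 and 480 min lay below those of 0 min, with differences of -0.27 (-0.34 with both divergent arrays left out) and -0.23 that were not called, and its difference at 600 min was -0.15 ± 0.10. Foxo3, known for driving arrest and death genes in many cell types, lay between 6.74 and 7.36, with a difference of 0.06 ± 0.10 at 600 min. For both genes, the arrays of neighbouring times in the order of the means overlapped throughout, and 0 contrasts were called. These values concern mRNA, and phosphorylation and location of the FOXO proteins were not measured.

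Among the target genes, Ccng2 rose furthest. It encodes cyclin G2, an unconventional cyclin linked to cell cycle arrest rather than to progression. Its values were 5.75, 5.82 and 6.16 at 0 min, 5.59, 5.67 and 6.00 at 30 min, followed by 5.52, 5.61 and 5.81 at 60 min. The early arrays overlapped, with the lowest mean at 60 min. It read 6.18, 6.22 and 6.69 at 120 min, 6.93, 6.69 and 6.18 at 240 min, followed by 6.65, 6.64 and 6.65 at 360 min. All arrays from 120 min on lay above all arrays up to 60 min. At 480 min the values were 7.09, 6.99 and 6.87 and at 600 min 7.30, 7.37 and 6.66, where replicate 3 lay at the level of 360 min.

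The mean of Ccng2 was 7.11 ± 0.39 at 600 min and 5.91 ± 0.22 at 0 min, a difference of 1.20 ± 0.19 (SE), or 2.29-fold, and 117 of 19938 genes had a larger one. At 240 min the difference was 0.69 ± 0.19 and not called with all arrays. It was called with the filter on low values, with quantile normalization (0.75), with eBayes with trend and robust, on leaving out the third 0 min array (0.82) or the third 240 min array (0.90), and with both divergent arrays left out (0.90 ± 0.17).

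Pik3ip1, which encodes a membrane protein that inhibits PI3K, fell. It read 6.73, 6.79 and 6.77 at 0 min, above each of the 21 later arrays, of which the highest, at 6.65, was the 240 min divergent array. At 30 min it read 6.58, 6.43 and 6.40, a difference of -0.29 ± 0.07 that was not called over all genes. It was lowest at 360 min, with 6.37, 6.37 and 6.23, and at 480 min, with 6.29, 6.26 and 6.42, and read 6.31, 6.45 and 6.54 at 600 min. The differences were -0.44 ± 0.07 at 360 and 480 min and -0.33 ± 0.07 at 600 min, or 1.25-fold lower. The step from 240 to 360 min, -0.23, was called with all arrays but not with both divergent arrays left out (-0.18), with quantile normalization (-0.26), with eBayes with trend and robust, or with a replicate block. At 240 min the difference was -0.21 with all arrays and not called, and -0.26 and called on leaving out the third 240 min array or with both divergent arrays left out.

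Irs2 and Bcl6 lay near the array medians and did not pass the test in any contrast. Irs2, an adaptor of the insulin and IGF1 receptors, lay between 4.72 and 5.20 on all arrays, with its lowest mean, 4.85, at 360 min. All its arrays of 240 and 360 min lay below those of 0 min. The differences, -0.13 (-0.08 with both divergent arrays left out) and -0.19, were not called. At 600 min its difference was -0.04 ± 0.07. Bcl6, a transcriptional repressor, lay between 4.50 and 5.24, with its lowest mean at 240 min and a difference of 0.05 ± 0.12 at 600 min. The values used here carry no detection call, so a change in either gene may not have been detectable. For both genes the arrays of neighbouring times in the order of the means overlapped.

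**Figure D3:**
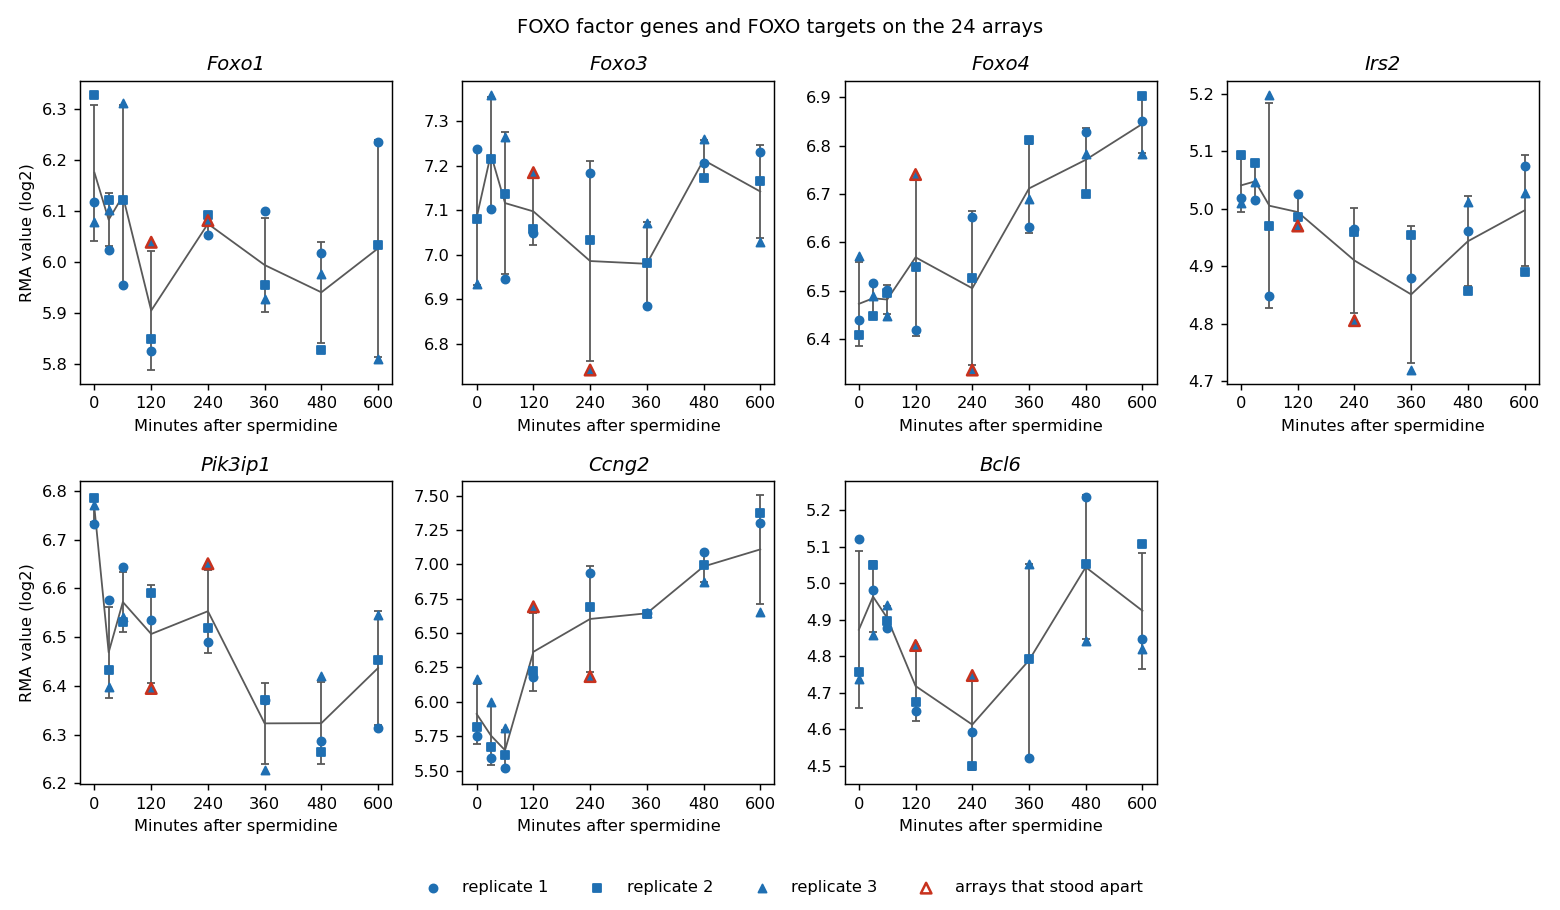
RMA values of the FOXO factor genes and the FOXO targets (vertical axes, log2 scale, a separate range for each gene) by minutes after spermidine (horizontal axes). Each symbol is 1 array, the line joins the means of 3 arrays, bars are SD, and red outlines mark both divergent arrays. Foxo4 and Ccng2 climb, Pik3ip1 is highest at 0 min and lowest at 360 and 480 min, and the axes of Irs2 and Bcl6 span less than 1 log2 unit.

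The windows of Ccng2 (chr5:93267323-93267622, plus strand) and Irs2 (chr8:11008880-11009179, minus strand) are shown because they hold the insulin response core, in capitals, although Ccng2 was higher at 600 min and Irs2 was not called. The match begins at -16 from the start of Ccng2, and in Irs2, read as TGTTTTG, it begins at -37 from the start.

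Ccng2: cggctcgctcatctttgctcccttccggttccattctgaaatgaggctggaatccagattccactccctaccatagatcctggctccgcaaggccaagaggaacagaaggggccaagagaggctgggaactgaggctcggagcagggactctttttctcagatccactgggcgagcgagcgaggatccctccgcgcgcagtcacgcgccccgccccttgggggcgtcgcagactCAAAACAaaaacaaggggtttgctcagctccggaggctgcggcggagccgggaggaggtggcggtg

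Irs2: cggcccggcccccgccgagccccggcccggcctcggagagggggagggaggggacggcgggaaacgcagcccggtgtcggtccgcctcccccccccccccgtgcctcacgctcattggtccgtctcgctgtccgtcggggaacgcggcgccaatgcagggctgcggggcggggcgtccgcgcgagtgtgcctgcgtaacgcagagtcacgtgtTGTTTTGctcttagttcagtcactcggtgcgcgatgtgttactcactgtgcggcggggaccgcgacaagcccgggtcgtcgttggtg

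The members also differed in pace. Sesn1 had covered 77.9% of its 600 min difference by 360 min and 95.6% by 480 min. Foxo4 stood at 64.1% and 80.0%, Ccng2 at 61.2% and 89.6%, and Sesn3 at 48.8% and 71.1%. At 240 min the shares with both divergent arrays left out were 47.0% for Sesn1, 75.3% for Ccng2, 31.4% for Foxo4 and 19.7% for Sesn3. With all arrays they were 32.8%, 57.7%, 8.66% and 14.4% in the same order. At 240 min Sesn2 stood at 118% of its 600 min difference with all arrays and at 156% with both divergent arrays left out. At 360 min it stood at 149%. Pik3ip1 stood at 90.2% at 30 min, 58.6% at 60 min and 78.6% at 120 min (61.5% with both divergent arrays left out). None of these differences was called. Its share was 64.3% at 240 min (79.3% with both divergent arrays left out) and 135% at 360 min. A contrast of the late times (360, 480 and 600 min) with the early ones (30, 60 and 120 min) called the same 4 members higher and 2 lower as at 600 min against 0 min, where 16.4% of all genes were called higher and 19.4% lower. Those differences were 1.89 ± 0.12 for Sesn1, 0.99 ± 0.11 for Ccng2, 0.59 ± 0.05 for Sesn3, 0.26 ± 0.04 for Foxo4, -1.05 ± 0.16 for Sesn2 and -0.15 ± 0.04 for Pik3ip1, the last not called with quantile normalization (-0.12). Between neighbouring times members were called in the step from 240 to 360 min only, Sesn1 higher and Pik3ip1 lower, where 4.25% of all genes were called higher and 1.80% lower. In the steps 30 to 60, 60 to 120, 120 to 240, 360 to 480 and 480 to 600 min, where 0 members were called, the shares of all genes called were 0.0451%, 0.411%, 0%, 0.612% and 0.181%. With both divergent arrays left out, the step from 120 to 240 min called Sesn1 higher and Sesn2 lower, where 524 genes (2.63%) were called. The step from 240 to 360 min then called Sesn1 alone of the members, where 603 genes (3.02%) were called.

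Over the 24 arrays Sesn1 ran closely with Sesn3 (Pearson r = 0.94), Ccng2 (0.92) and Foxo4 (0.90), and against Sesn2 (-0.75). With both divergent arrays left out these were 0.94, 0.93, 0.93 and -0.77. Sesn2 and Pik3ip1, both lower at the late times, had r = 0.46 with each other. All of these arrays share the time course, and the correlations are a description. The 5 genes most like Sesn1 over the 24 arrays were Hspa4l, an Hsp110 chaperone gene (r = 0.99), Hmgcs1, of sterol synthesis (0.99), Scd2, a fatty acid desaturase gene (0.99), Pfkl, of glycolysis (0.99), and Nadk2, a mitochondrial NAD kinase gene (0.99). Over the 8 time means their r with Sesn1 lay between 0.99 and 1.00. Those most like Sesn2 were Polk, Ppp1r10, Trp53inp1, Epha2 and Bcl2l1 (0.95 to 0.96). Those most like Ccng2 were Tuba4a (0.97), Layn, Tnfsf9, Narf and Klhl24. Sesn3 was most like Pip4k2b (0.98), Pgp, Matn2, Dpysl2 and Idh1, and Foxo4 most like Pfkp (0.94), Dcaf6, Fam111a, Mcm4 and Ap3b1. For Foxo1, Foxo3, Irs2, Pik3ip1 and Bcl6 the closest genes reached only 0.80 (Ddx54), 0.81 (Dzip1), 0.73 (Yod1), 0.83 (Cmas) and 0.80 (Tmem39b).

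Other p53 targets are set beside the sestrins as a description, since their fall was part of how the list was made. Of 25 with a value, 17 were called lower and 0 higher at 600 min against 0 min, with a median difference of -0.47, against 0.01 for all genes. At 360 min 16 were lower and 1 was higher, Dram1, an autophagy gene named for being the exception. Eda2r, a receptor gene of the TNF receptor family, was at 8.02 ± 0.10 at 600 min and 9.51 ± 0.15 at 0 min, a difference of -1.49 ± 0.21. Plk2, a polo-like kinase gene, differed by -1.15 ± 0.12, Aen, a nuclease gene, by -1.13 ± 0.11, Gadd45a, a growth arrest and DNA damage gene, by -1.12 ± 0.18, Mdm2, the ubiquitin ligase that restrains p53, by -1.05 ± 0.16, and Polk, a translesion polymerase gene, by -0.94 ± 0.19. Sesn2, at -0.92, lay among these genes, and Sesn1, at 2.20, lay above all 25, the highest of which was Dram1 at 0.17.

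**Figure D4:**
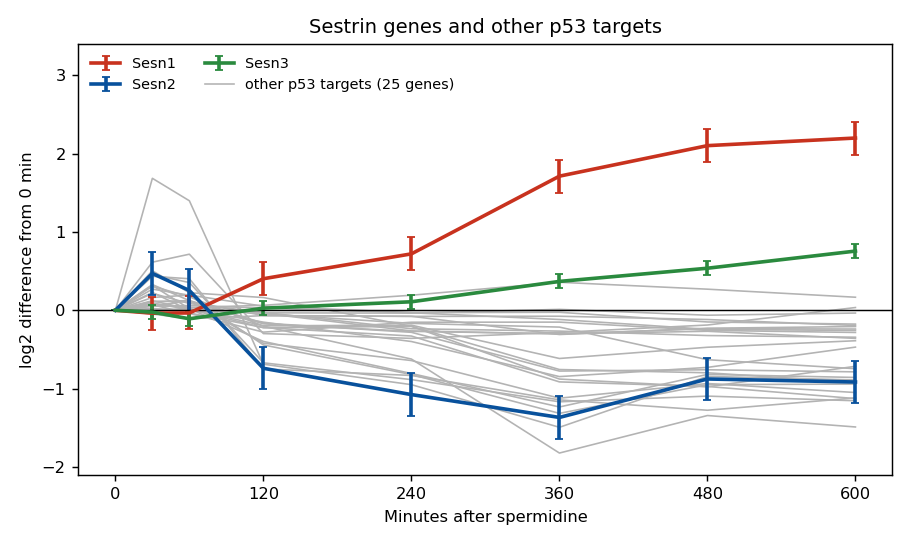
Difference from 0 min on the log2 scale (vertical axis) by minutes after spermidine (horizontal axis) for Sesn1, Sesn2 and Sesn3 (coloured lines, bars are SE, 3 arrays per time) and for each of 25 other p53 targets (grey lines). At 600 min Sesn1 is at 2.20 and Sesn3 at 0.76, above every grey line, and Sesn2 at -0.92 runs among them.

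Genes of ATF4 and the integrated stress response, to which Sesn2 also belongs, were lower at 600 min. Of 16 measured, 14 fell and 0 rose, with a median of -0.78. Ddit3, the stress-induced factor CHOP, was at 5.85 ± 0.15 at 600 min and 7.57 ± 0.20 at 0 min, a difference of -1.72 ± 0.16 (adjusted p = 9.47e-08). Nupr1, a stress-induced chromatin protein gene, fell by 1.58 (adjusted p = 4.2e-07), Trib3, the gene of a pseudokinase that binds Akt, fell by 1.52 (adjusted p = 2.32e-05), and Atf4 fell by 1.33 (adjusted p = 5.2e-06). Chac1, a glutathione-degrading enzyme gene, fell by 0.91 (adjusted p = 0.00104) and Atf3 by 0.90 (adjusted p = 0.000351). Counted over time, 1 of the 16 was lower at 120 min, 3 at 240 min, 10 at 360 min and 12 at 480 min, when 1 was higher, Ddit4, an mTORC1 inhibitor gene (0.50, adjusted p = 0.045, and 0.0667 with a replicate block), named after its values were seen. With the block 10 were lower and 0 higher at 480 min.

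Other FOXO targets went both ways. Of 40 measured, 8 were called higher and 9 lower at 600 min, with a median of 0.03. Of all genes, 11.2% were called higher and 15.7% lower. The list holds induced targets and also Ccnd1 and Ccnd2, known as repressed ones. Its counts and median therefore give no direction for FOXO activity. The rises were led by Bnip3, a mitophagy receptor gene, which was at 9.07 ± 0.28 at 600 min and 6.50 ± 0.28 at 0 min (2.57 ± 0.26, adjusted p = 3.44e-07). Mxi1, a Myc antagonist gene, rose by 1.04 (adjusted p = 3.92e-07) and Cat, catalase, by 0.64 (adjusted p = 1.8e-05). Cdkn1b, the cell cycle inhibitor p27, rose by 0.52 (adjusted p = 0.00358) and Rbl2, the retinoblastoma relative p130, by 0.50 (adjusted p = 0.000404). Both were chosen after their values were seen. Txnip, a thioredoxin-binding protein gene, fell by 1.04 (adjusted p = 1.88e-05), and Gadd45a (-1.12) and Trp53inp1 (-0.86), which stand on the p53 list too, were also lower. Ccnd1 and Ccnd2, D-type cyclins that FOXO factors are known to repress, fell by 0.53 (adjusted p = 8.04e-05) and 0.25 (adjusted p = 0.000449). These cyclins and the other called genes of the list, which went both ways, were also chosen after their values were seen. Eif4ebp1 fell by 0.48 (adjusted p = 1.68e-05) and Selenop by 0.28 (adjusted p = 0.00157). Prdx3 and Rictor each fell by 0.27 (adjusted p = 0.000109 and 0.0264). Hbp1 rose by 0.32 (adjusted p = 0.00238) and Tob1 by 0.25 (adjusted p = 0.0136). Cdkn2d rose by 0.28 (adjusted p = 0.0366, and 0.056 with a replicate block). Whether FOXO activity changed was not tested.

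Upstream of FOXO, 6 of 23 genes of PI3K and Akt signalling rose and 7 fell at 600 min, with a median of 0.02. Irs1, the other main IRS adaptor, was at 8.34 ± 0.20 at 600 min and 7.71 ± 0.17 at 0 min (0.63 ± 0.11, adjusted p = 0.000167). Pik3ca, the catalytic subunit p110 alpha that Pik3ip1 acts on, rose by 0.48 (adjusted p = 3.08e-05), and Phlpp1, a phosphatase of Akt, by 0.46 (adjusted p = 0.0258). Igf1r, the IGF1 receptor gene, fell by 0.58 (adjusted p = 2.25e-06) and Akt2 by 0.49 (adjusted p = 4.27e-07). Trib3 is on this list as well.

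Among 24 genes whose products act on FOXO proteins or belong to related forkhead families, 5 rose and 6 fell, with a median of 0.01. Xpo1, the exportin that carries FOXO proteins out of the nucleus, rose by 0.85 (adjusted p = 4.38e-07), and Cdk2, a cell cycle kinase, by 0.84 (adjusted p = 0.00035). Skp2, part of a ubiquitin ligase for FOXO1, rose by 0.80 (adjusted p = 3.15e-05), as did Foxk2, a forkhead factor gene (adjusted p = 6.28e-07). Sirt1, a deacetylase of FOXO proteins, was at 6.87 ± 0.13 at 600 min and 7.34 ± 0.09 at 0 min, a fall of 0.47 (adjusted p = 3.63e-05), and Mdm2 was lower, as on the p53 list.

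Among 38 genes of amino acid sensing by mTORC1, on which sestrins act, 8 rose and 17 fell, with a median of -0.21. The list holds genes that promote mTORC1 activity and genes that restrain it, so counts and median give no direction for the pathway. Itfg2, a subunit of the KICSTOR complex that anchors GATOR1, was at 6.16 ± 0.24 at 600 min and 7.69 ± 0.12 at 0 min (-1.53 ± 0.14, adjusted p = 9.71e-08). Flcn and Fnip2, partners in the folliculin complex that regulates the Rag GTPases, fell by 0.70 (adjusted p = 7.55e-05) and 0.72 (adjusted p = 3.77e-05). Slc38a9, the lysosomal arginine sensor, fell by 0.70 (adjusted p = 3.63e-05) and Lamtor5, a Ragulator subunit, by 0.66 (adjusted p = 6.97e-07). Deptor, an inhibitor of mTOR, rose by 0.59 (adjusted p = 3.69e-06), from 4.45 ± 0.08 at 0 min, near the array medians. Rises were also called for Rragc (0.49), Depdc5 (0.45), Prkaa1 (0.43), Bmt2 (0.34), Rraga (0.25) and Castor2 (0.25), named after their values were seen. In GATOR2, the complex that sestrin 2 binds, Wdr24 fell by 0.48 (adjusted p = 2.97e-05) and Mios by 0.31 (adjusted p = 0.0367, and 0.0558 with a replicate block), while Seh1l, which also serves the nuclear pore, rose by 0.47 (adjusted p = 9.06e-07). Its other subunits Wdr59 (-0.04, adjusted p = 0.814) and Sec13 (-0.11, adjusted p = 0.396) did not pass the test. These 5 genes were chosen after their values were seen. The share of all genes called at 600 min was 26.9%, with 11.2% higher and 15.7% lower, and no list is called particular from its count.

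**Figure D5:**
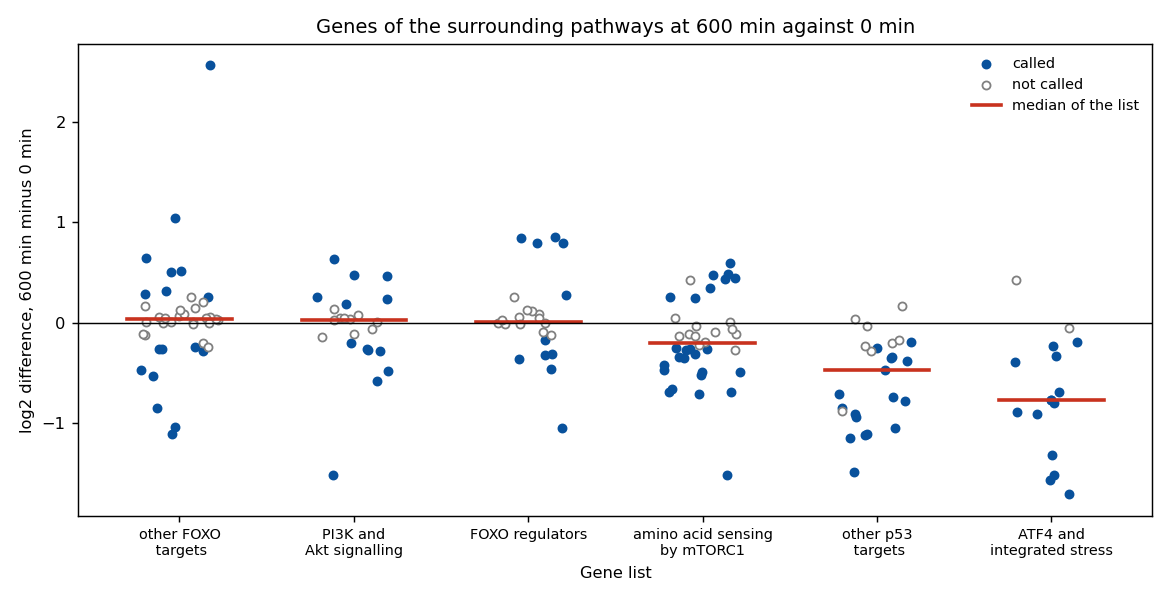
Difference of 600 min minus 0 min on the log2 scale (vertical axis) for each gene of 6 lists around the sestrin and FOXO genes (horizontal axis, points spread sideways at random). Filled points were called by limma over all genes, open points were not, and red bars are list medians. The medians of the FOXO target, PI3K and FOXO regulator lists lie at 0.03, 0.02 and 0.01, and those of the p53 and ATF4 lists at -0.47 and -0.78.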

How the data were processed

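RNA from 24 dishes was measured on Affymetrix MoGene 1.0 ST arrays. Per the submitters' processing notes, the authors used Partek and RMA, and the deposited values are on a log2 scale, inferred from their range. Software versions are not given in the sources used here. Averaged over the 8 times, each gene has the same value for replicates 1, 2 and 3 (largest gap 8.75e-05), so an effect of replicate number was removed before deposit by an undescribed step. The 16 residual degrees of freedom of the fit are then too many, and its p-values somewhat too small.

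Of 35399 probe sets, 21789 had 1 gene symbol, 1621 several and 11989 none. The probe set with the highest mean was taken per gene, which gave 19938 genes. A linear model with 1 mean per time was fitted to the 24 arrays in limma 3.58.1 (R 4.3.3), and two-sided p-values were adjusted by Benjamini-Hochberg within each contrast over all genes. The number of arrays limits the precision (median SE of a difference 0.0567). The removed replicate effect by itself pushes the correlations of same-numbered arrays below 0 (median -0.15 over 84 pairs), so they cannot show whether the numbers pair the arrays. No label says that they do, and a replicate block was fitted as an alternative.

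The members, lists, tests and alternatives were chosen with earlier results of these data known. Named genes were all members, the 5 genes most like each, and up to 6 genes per list, the largest differences among those called at 600 min with all 3 arrays beyond those of 0 min. All comparisons with 0 min share its arrays. Some listed genes were not analysed here. Alternatives were a replicate block, leaving out arrays, a filter on low values, quantile normalization, eBayes with trend and robust, and fits to 6 arrays.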

Additional observations from a re-analysis of the deposited data

How the results depend on the processing

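At 360, 480 and 600 min and for the late against the early times, the counts of members called stayed between 5 and 6 under all alternatives run. The lost calls outside the fits that left out an array were Foxo4 at 360 min (block, and eBayes with trend and robust) and Pik3ip1 late against early (quantile normalization). On leaving out 1 array, the difference of Sesn2 at 600 min ranged from -1.12 to -0.65 (-0.92 with all arrays). That of Ccng2 at 360 min ranged from 0.65 to 0.86 (0.73 with all arrays). With the replicate block, 0 genes were called at 30 min, 2 at 60 min, 40 at 120 min and 356 at 240 min, against 3, 5, 94 and 610 without it, and members called went to 0 at 240 min against 0 min and to 1 at 360 min against 240 min. With both divergent arrays left out the gene counts were 8, 11, 47 and 1663, and members called were 4 at 240 min against 0 min, 2 at 240 min against 120 min and 1 at 360 min against 240 min, where 524 and 603 genes were called in the last 2 steps. With both changes, an alternative chosen after the data were seen, genes called were 0 at 30 min, 19 at 120 min and 1314 at 240 min, and members called 4, 1 and 1. With the filter on low values, which all 10 members passed among 9969 genes, 6 genes were called at 30 min and 167 at 120 min, and 3 members at 240 min. Quantile normalization gave 398 genes at 240 min and 1 member at 360 min against 240 min, and eBayes with trend and robust also gave 1 member there. At 240 min against 0 min both settings called 1 member, Ccng2 higher, in place of Sesn2 lower. Restricting each fit to its own 6 arrays gave 0 genes at 60 min, 6 at 120 min, 32 at 240 min and 0 members at 240 min. The cause of these shifts was not tested. Leaving out 1 array at a time gave 0 to 7 genes at 30 min, 2 to 7 at 60 min, 13 to 234 at 120 min, 200 to 1298 at 240 min, 3026 to 3210 at 360 min, 4033 to 4314 at 480 min and 4556 to 5153 at 600 min, and 0 members at 30, 60 and 120 min, 0 to 4 at 240 min and 5 to 6 at 360, 480 and 600 min. The counts at 240 min were lowest without replicate 1 of 240 min and highest without replicate 3 of 240 min, and those at 120 min lowest without replicate 1 of 0 min and highest without replicate 2 of 120 min. On leaving out 1 array, list counts at 600 min were 15 to 16 for FOXO targets (17 with all arrays) and 9 to 11 for PI3K and Akt (13). They were 9 to 12 for FOXO regulators (11), 21 to 25 for amino acid sensing (25), 12 to 18 for p53 targets (17) and 11 to 13 for ATF4 (14). The other alternatives gave 16 to 20, 11 to 13, 10 to 12, 23 to 26, 16 to 20 and 13 to 15 in the same order. No member had a further probe set, so that alternative was not run.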
